A study of Mus musculus with 8 samples.

Results

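The 10 genes described here encode enzymes that desaturate or lengthen fatty acids: the stearoyl-CoA desaturases Scd1, Scd2, Scd3 and Scd4, the front-end desaturases Fads1 and Fads2 with their relative Fads3, and the elongases Elovl1, Elovl5 and Elovl6. They were chosen by symbol, and all 10 of 10 were rows of the deposited count table of 24888 genes. The series holds 8 mouse RNA-seq libraries, each the only one of its group and all derived from the E14 embryonic stem cell (ESC) line, so a group is 1 culture or 1 collection with no replicate. The groups were expanded potential stem cells (EPSC, made from the ESC over 5 passages) given the synthetic liver X receptor (LXR) agonist T0901317 (T09) for 3 days and untreated EPSC, then ESC given T09 for 3 days and untreated ESC. Blastoids are aggregates grown to resemble blastocysts, and those of day 2 were harvested 48 hours after EPSC were transfected with an siRNA against Nr1h2 (siNr1h2) or with siNT. Day 5 blastoids picked by hand as Type I and as Type III were both labelled as derived from T09-treated EPSC. The ESC medium held fetal bovine serum, the EPSC medium held knockout serum replacement and more kinase inhibitors, and every stem cell medium held LIF, CHIR99021 and PD0325901, so that state and medium cannot be told apart. The labels write the T09 dose as 1 uM/mL, which leaves the concentration unclear, and give no T09 dose or time for the day 5 blastoids.

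Stearoyl-CoA desaturases put the first double bond into saturated fatty acids, which yields oleate and palmitoleate for membranes and stored lipid. Fads2 and Fads1 catalyse the delta-6 and delta-5 steps that turn dietary linoleate and alpha-linolenate into long polyunsaturated fatty acids, and Elovl5 lengthens the chain between those steps. Elovl6 lengthens the saturated and monounsaturated products of fatty acid synthase, and Elovl1 makes very long saturated and monounsaturated chains used in sphingolipids. In liver, LXR raises Scd1 both directly and through Srebf1, the sterol regulatory element-binding factor of lipogenesis. Fads3 has been described as a sphingoid base desaturase, and Scd3 and Scd4 are further members of the mouse Scd cluster.

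Total counts ran from 24666260 to 40781415 per library. Levels are in CPM after TMM scaling, and the floor for 0 counts, set at 3 counts, was 0.0741 to 0.114 CPM. Intervals are 95% and cover counting error only, since each group has 1 library. The reads carry no molecular identifiers, so duplicate reads were not set apart and the intervals do not allow for them. The 8 pluripotency markers summed to 5203 CPM in T09-treated EPSC and 4693 in EPSC, to 7288 in T09-treated ESC and 7435 in ESC, to 2145 in siNr1h2 and 2216 in siNT, and to 535 in Type I and 1047 in Type III. The 9 primitive endoderm markers summed to between 68.4 and 260 CPM in the stem cells and between 2666 and 5583 CPM in the blastoids. The 9 trophectoderm markers summed to between 96.8 and 119 CPM in the stem cells, to 227 in siNr1h2 and 236 in siNT, and to 1362 in Type I and 1511 in Type III. Most of the day 5 trophectoderm sum was the keratins Krt8 (717 CPM in Type I, 754 in Type III) and Krt18 (553 in Type I, 648 in Type III). Of the transcription factors on that list, Cdx2 was at 48.2 CPM in Type I and 30.9 in Type III, Hand1 at 2.81 in Type I and 16.3 in Type III, and Elf5 at 0.195 in Type I and 0.395 in Type III, while Tfap2c was at 19.5 in Type I and 28.1 in Type III, below its 104 CPM in T09-treated EPSC. The 7 fibroblast markers summed to between 4.2 and 24.4 CPM in all 8 libraries.

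The 4 Scd genes lie side by side on chromosome 19 and are near copies of one another in their coding sequence, so the stretches where they are most and least alike are shown. Over the aligned coding bases, Scd1 was identical to Scd3 at 91.5%, to Scd2 at 90.4% and to Scd4 at 84.7% in GENCODE M21 transcripts. The window of 90 bases in which the 4 were most alike held 89 positions with the same base in all of them. It starts at coding base 463 of Scd1, 472 of Scd2, 475 of Scd3 and 457 of Scd4, counted from 1 at the A of the start codon. Capitals mark bases that differ from Scd1.
Scd1: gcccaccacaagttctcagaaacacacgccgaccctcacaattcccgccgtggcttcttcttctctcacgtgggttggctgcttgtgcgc
Scd2: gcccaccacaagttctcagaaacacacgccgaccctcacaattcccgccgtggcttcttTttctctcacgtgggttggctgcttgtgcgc
Scd3: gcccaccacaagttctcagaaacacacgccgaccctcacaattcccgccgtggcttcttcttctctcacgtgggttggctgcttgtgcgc
Scd4: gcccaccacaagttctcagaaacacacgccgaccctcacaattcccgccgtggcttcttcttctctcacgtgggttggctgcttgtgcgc

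A read of this length from that window could be placed in any of 3 of the genes. The window in which they were least alike, again without gaps, held 53 of 90 positions with the same base in all 4, and starts at coding base 290 of Scd1, 299 of Scd2, 302 of Scd3 and 284 of Scd4. In it Scd2 differed from Scd1 at 12 bases, Scd3 at 19 and Scd4 at 23. Capitals again mark bases that differ from Scd1.
Scd1: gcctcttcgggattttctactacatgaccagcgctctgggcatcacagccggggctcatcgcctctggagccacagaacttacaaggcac
Scd2: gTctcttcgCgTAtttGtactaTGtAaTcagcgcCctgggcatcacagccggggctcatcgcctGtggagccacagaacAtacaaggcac
Scd3: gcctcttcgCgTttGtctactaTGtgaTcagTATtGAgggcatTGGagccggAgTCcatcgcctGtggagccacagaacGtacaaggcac
Scd4: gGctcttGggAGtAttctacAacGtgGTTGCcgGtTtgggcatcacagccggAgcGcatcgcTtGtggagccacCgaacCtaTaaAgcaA

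Most of each Scd transcript lies outside such shared stretches. Of all runs of 50 bases in the longest-coding GENCODE M21 transcript, 4.66% for Scd1, 4.01% for Scd2, 6.69% for Scd3 and 6.32% for Scd4 also occurred in a transcript of another gene. The other members shared less with their own families. Fads2 and Fads3 shared 5 such runs with each other, Elovl5 and Fads1 shared none with any gene, and the 4.59% of Elovl6 was shared with genes outside the list, chiefly Gm11295. How the authors assigned reads that fit more than 1 gene is not given in the sources used here, so the values of Scd3 and Scd4, which had few counts beside abundant near copies, are uncertain. Elovl1 overlaps Cdc20 on the opposite strand over 53 exon bases (1.9% of its exons), and whether the counting used strand is not given.

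Per kilobase of exon, Scd2 was the most abundant member in all 8 libraries, by either of the lengths used (all annotated exons, or the longest-coding transcript). Its level per kilobase of all exons was 386 CPM in T09-treated EPSC and 130 in EPSC, 497 in T09-treated ESC and 176 in ESC, 138 in siNr1h2 and 130 in siNT, and 466 in Type I and 156 in Type III. Scd1 stood second in the T09-treated cells and in both day 5 blastoids, at 72.1 to 174 CPM per kilobase of all exons. It was at rank 4 in the other 4 libraries, at 31.7 to 34.2 CPM by the same length, behind Elovl5 and Elovl6. The order of Elovl5 and Elovl6 depended on the length used in 5 of the 8 libraries and that of the members near Fads1 and Fads2 in some, so neighbours there are not ranked. Scd3, Fads3 and Scd4 stayed at or under 1.38 CPM per kilobase of all exons in every library, and at or under 1.41 by the longest-coding transcript.

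**Figure D1:**
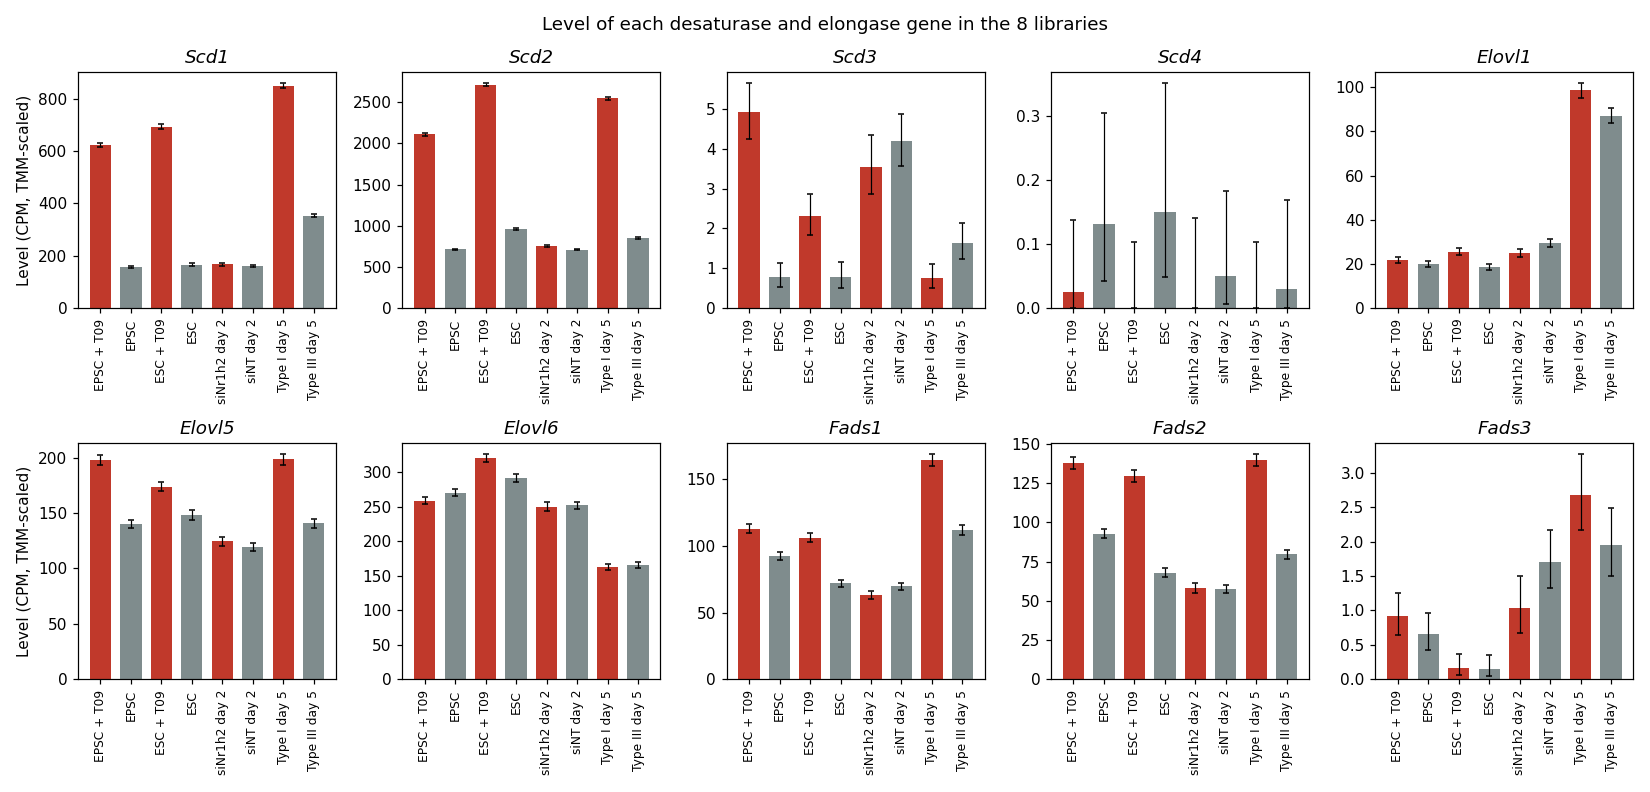
Level of each gene (CPM, TMM-scaled, linear axes from 0) in the 8 libraries, 1 bar per library with its 95% counting interval; red bars are T09-treated, siNr1h2 and Type I libraries and grey bars the libraries each is set beside. Scd1 and Scd2 stand apart in the T09-treated and Type I libraries (624 to 850 and 2108 to 2715 CPM), whereas Elovl6 is lowest and Elovl1 highest in the day 5 blastoids.

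The T09 libraries asked which genes respond to LXR activation. T09 raised Scd1 and Scd2 in EPSC and ESC, and no member was called lower. Scd1 was at 624 CPM in T09-treated EPSC (616 to 632) and 155 in EPSC (151 to 159). In ESC it was at 694 CPM with T09 and 166 without. The level with T09 was thus 4.02-fold that without in EPSC and 4.17-fold in ESC. Scd2, the main Scd gene of these cells, was at 2108 CPM in T09-treated EPSC and 711 in EPSC, and at 2715 CPM in T09-treated ESC and 961 in ESC. The level of Scd2 with T09 was 2.96-fold that without in EPSC and 2.83-fold in ESC.

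In edgeR's quasi-likelihood fit of state plus treatment over the 4 stem cell libraries, Scd1 rose by 2.03 on the log2 scale (SE 0.107, Benjamini-Hochberg adjusted p 7.43e-05) and had the smallest p of all 14477 genes tested. Scd2 rose by 1.53 (SE 0.113, adjusted p 0.000491), with rank 5 by p. Of 9 members tested, 2 rose and 0 fell, beside 0.0898% of all genes called higher and 0.0138% called lower, and the median log2 change was 0.43 over the 9 members and 0.00 over all genes. The fit had 1 residual degree of freedom, and both states come from 1 line, so its p-values do not measure the spread between repeat cultures.

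Scd3 had 199 counts in T09-treated EPSC and 30 in EPSC, and 83 counts in T09-treated ESC and 26 in ESC. The treated libraries were again the higher ones, 5.94-fold (425% to 952% of EPSC) and 2.82-fold (188% to 478% of ESC), but the log2 change of 2.13 had an SE of 0.385 and did not pass, with an adjusted p of 0.147 by edgeR. Under 5 alternatives the adjusted p of Scd3 ran from 0.0164 without a filter on low counts, where it passed, to 0.154. Scd4 had 1 count in T09-treated EPSC and 5 in EPSC, and 0 in T09-treated ESC and 5 in ESC. It was left out of the fit by the filter on low counts, and its difference was not detectable at this depth.

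Fads2, the delta-6 desaturase, had the next clearest difference. It was at 138 CPM in T09-treated EPSC and 92.7 in EPSC, and at 129 CPM in T09-treated ESC and 68.0 in ESC. Fads2 was thus higher with T09 in each state, and so were Fads1, Elovl5 and, within counting error in EPSC, Elovl1. How many of all genes were higher with T09 in both states was not counted. The log2 change of Fads2 was 0.75 (SE 0.118), and edgeR gave it an adjusted p of 0.0799, short of the threshold of 0.05. It passed in 2 of 5 alternatives, with adjusted p from 0.000786 in DESeq2 to 0.0876 in limma-voom. Fads1, the delta-5 desaturase, was at 113 CPM in T09-treated EPSC and 92.4 in EPSC, and at 106 CPM in T09-treated ESC and 71.9 in ESC. Its log2 change of 0.43 (SE 0.112) had an adjusted p of 0.461. Fads3 rested on 37 counts in T09-treated EPSC and 25 in EPSC, and on 6 in T09-treated ESC and 5 in ESC, and differed by less than counting error in each state.

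None of the 3 elongases passed the test for T09. Elovl5 was at 198 CPM in T09-treated EPSC and 140 in EPSC, and at 174 CPM in T09-treated ESC and 148 in ESC, a log2 change of 0.36 (SE 0.109, adjusted p 0.561 in edgeR's quasi-likelihood fit). Elovl1 was at 21.7 CPM in T09-treated EPSC and 20.0 in EPSC, and at 25.4 CPM in T09-treated ESC and 18.6 in ESC, with a log2 change of 0.28 (SE 0.149, adjusted p 0.874). Elovl6, a classic lipogenic target in liver, was at 259 CPM in T09-treated EPSC and 270 in EPSC, and at 320 CPM in T09-treated ESC and 291 in ESC. Its log2 change of 0.04 (SE 0.106, adjusted p 0.983) was the smallest in size among the 9 members tested. By the 2-fold mark (at least 2-fold, an interval that excludes a ratio of 1, and 20 counts in 1 of the libraries), Scd1, Scd2 and Scd3 were higher with T09 in EPSC and the same 3 in ESC, and no member was lower. Of all genes tested, 0.895% were higher and 3.29% lower in EPSC, and 1.39% were higher and 2.53% lower in ESC.

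**Figure D2:**
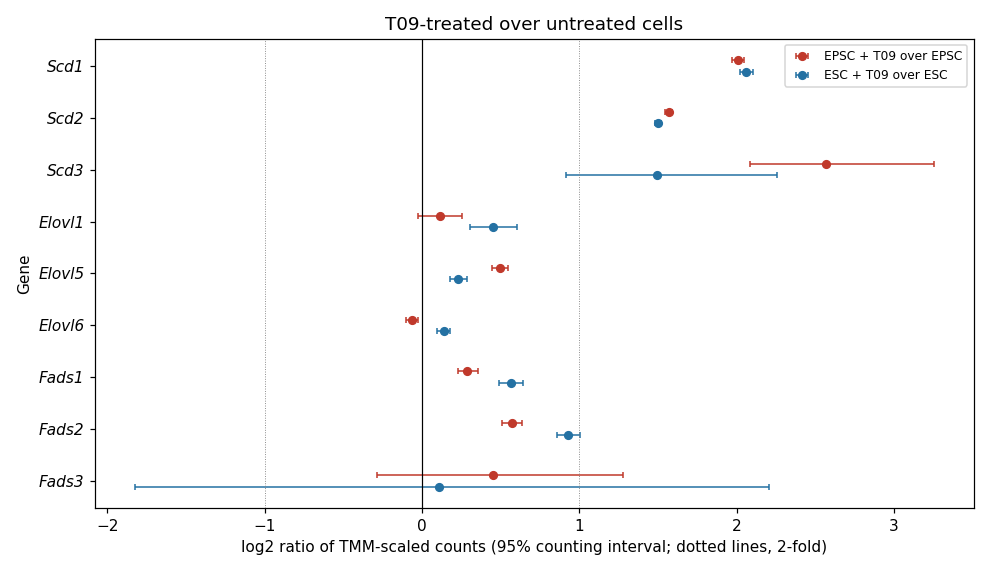
Log2 ratio of T09-treated over untreated cells for 9 genes (x axis, TMM-scaled counts with 95% counting intervals; dotted lines at 2-fold), red for EPSC and blue for ESC. Scd1, Scd2 and Scd3 lie to the right of 2-fold in both states, Fads2, Fads1 and Elovl5 between 0.23 and 0.93, and Elovl6 on either side of 0.

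The T09 ratio was nearly alike in both states for Scd1 and Scd2 and less so for the others. In EPSC minus ESC, the difference of the log2 ratios was -0.05 (-0.11 to 0.00) for Scd1 and 0.07 (0.04 to 0.10) for Scd2. It was -0.36 (-0.45 to -0.26) for Fads2, -0.28 (-0.37 to -0.18) for Fads1 and -0.34 (-0.54 to -0.14) for Elovl1, where the ratio in ESC was the larger, and 0.26 (0.19 to 0.34) for Elovl5 and 1.07 (0.23 to 1.92) for Scd3, where the ratio in EPSC was. These intervals hold counting error only and each state has 1 pair of libraries, so the differences were not tested.

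The Scd genes together took 2737 CPM in T09-treated EPSC and 868 in EPSC, 3411 in T09-treated ESC and 1128 in ESC, 927 in siNr1h2 and 875 in siNT, and 3397 in Type I and 1207 in Type III. Within that sum the share of Scd1 was 22.8% in T09-treated EPSC (22.6 to 23.0) and 17.9% in EPSC (17.5 to 18.3), and 20.3% in T09-treated ESC (20.1 to 20.6) and 14.7% in ESC (14.4 to 15.1), by exact Clopper-Pearson intervals. It was 18.0% in siNr1h2 and 18.5% in siNT, and reached 25.0% in Type I (24.8 to 25.3) and 29.2% in Type III (28.8 to 29.7). The share was thus above that of the untreated partner in both T09-treated libraries and highest in the day 5 blastoids, in which the library with less Scd RNA had the larger share of Scd1. Scd3 held from 0.0221% of the Scd counts in Type I to 0.479% in siNT. In Type I it had 27 counts beside 121904 of Scd1 and Scd2, fewer than the 30 it had in EPSC beside 33098. By count, Scd2 was the 13th most counted of all genes in T09-treated ESC, 17th in Type I and 21st in T09-treated EPSC, and between 108th and 169th in the other 5 libraries.

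**Figure D3:**
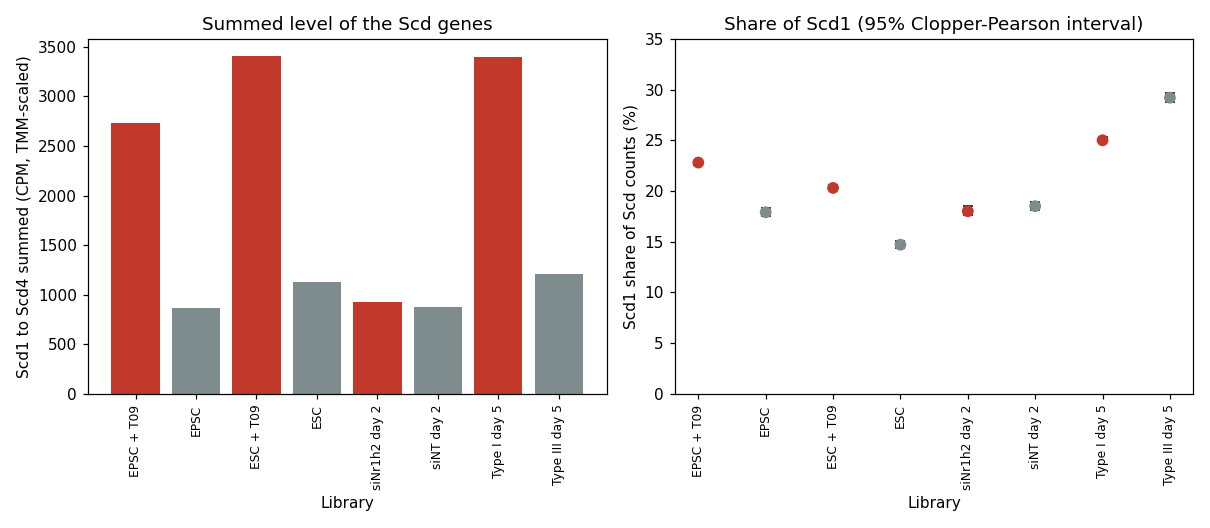
Left, summed level of Scd1 to Scd4 (CPM, TMM-scaled, bars from 0) in each library; right, share of Scd1 in the summed Scd counts (%, points with 95% Clopper-Pearson intervals). The sum is 2737 to 3411 CPM in the T09-treated and Type I libraries and 868 to 1207 CPM in the others, and the share of Scd1 runs from 14.7% in ESC to 29.2% in Type III.

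The same fit set EPSC beside ESC. Scd2 was lower and Fads3 higher in EPSC, and the other members tested did not pass. Scd2 fell by 0.41 on the log2 scale (SE 0.111, adjusted p 0.0211 in edgeR's quasi-likelihood fit), with 2108 CPM in T09-treated EPSC, 2715 in T09-treated ESC, 711 in EPSC and 961 in ESC. Fads3 had 37 counts in T09-treated EPSC and 6 in T09-treated ESC, and 25 counts in EPSC and 5 in ESC. It rose by 2.26 (SE 0.656, adjusted p 0.029 in edgeR's quasi-likelihood fit), a call that DESeq2 did not make (adjusted p 0.183; 0.0238 to 0.183 over 5 alternatives). So 1 member rose and 1 fell of 9, beside 14.3% of all genes higher and 14.5% lower, with a median of 0.04 over the members and 0.00 over all genes. Fads2, Fads1 and Scd3 had log2 changes of 0.26, 0.21 and 0.63, and Elovl6 and Scd1 of -0.22 and -0.14, none past the test (adjusted p 0.137 to 0.354). In the untreated pair alone, Fads2 was at 136% of its ESC level (129 to 144%) and Fads1 at 128% (122 to 135%), whereas in the treated pair both were at 106% (102 to 111%). By the 2-fold mark Fads3 was higher in both pairs and Scd3 in the treated pair, at 4.92 CPM in T09-treated EPSC and 2.32 in T09-treated ESC, and no member was lower. In the treated pair 8.35% of all genes tested were higher and 9.79% lower, and in the untreated pair 9.58% were higher and 8.05% lower.

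The siRNA libraries addressed what loss of Nr1h2, the gene of LXR beta, does in day 2 blastoids. Nr1h2 was at 37.7 CPM in siNr1h2 and 53.9 in siNT, a log2 ratio of -0.51, so the knockdown was partial. No member was 2-fold different, 0 of 9 with 20 counts, beside 1.49% of all genes higher and 2.17% lower, and with 1 library per group there was no test. Scd1 was at 167 CPM in siNr1h2 and 162 in siNT (103%, 99.5 to 107%), and Scd2 at 756 and 709 CPM in the same order (107%, 105 to 109%). Fads2 stood at 101% (94.7 to 108%), Elovl6 at 99.2% (96.1 to 102%) and Elovl5 at 104% (99.5 to 109%) of siNT. Fads1 was at 90.2% (84.8 to 95.9%) and Elovl1 at 84.7% (76.8 to 93.3%). The furthest from siNT was Fads3, with 27 counts in siNr1h2 and 67 in siNT, at 61.9% (37.2 to 95.9%). Scd3 had 93 counts in siNr1h2 and 165 in siNT, at 84.8% (64.9 to 110%). For the abundant members these intervals leave out any loss of 1.5-fold between these 2 libraries, though not between cultures.

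Day 2 siNT blastoids were set beside untreated EPSC, and Fads2, Fads1 and Elovl5 were lower and Elovl1 higher in the blastoids, each by less than 2-fold. The siNT cells had also been transfected, so transfection and growth as blastoids cannot be told apart. Scaling by library totals raised the log2 ratios of this pair by 0.091. In bulk samples, fewer cells of a type and less RNA per cell cannot be told apart, and this holds for every blastoid value. Scd1 (162 CPM in siNT, 155 in EPSC) and Scd2 (709 and 711) were at nearly the same level, and Elovl6 was at 252 CPM in siNT and 270 in EPSC. Fads2 was lower, at 57.4 CPM in siNT and 92.7 in EPSC (61.9%, 58.7 to 65.3%), and so was Fads1 at 69.8 and 92.4 CPM (75.6%, 71.9 to 79.5%). Elovl5 was at 120 CPM in siNT and 140 in EPSC (85.2%, 81.9 to 88.6%). Elovl1 was higher, at 29.4 CPM in siNT and 20.0 in EPSC. By the 2-fold mark Scd3 (165 counts in siNT, 30 in EPSC) and Fads3 (67 and 25 counts) were higher, 2 of 9, beside 14.5% of all genes higher, and none was lower, beside 11.3%. Primitive endoderm markers summed to 2803 CPM in siNT and 260 in EPSC, and their part in these differences was not tested. Most of the sum was Cubn (1120 CPM), Lrp2 (877) and Dab2 (388) in siNT, and Lrp2 (217) in EPSC. All 9 of these markers were past 2-fold higher in siNT.

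Type I and Type III day 5 blastoids, both from T09-treated EPSC, were compared next. Scd1 and Scd2, which T09 raised in the stem cells, were also higher in Type I than in Type III, and Elovl6 differed by less than counting error. Scd1 was at 850 CPM in Type I and 353 in Type III, and Scd2 at 2546 CPM in Type I and 852 in Type III. The log2 ratios were 1.27 (1.24 to 1.30) and 1.58 (1.56 to 1.60). Fads2 was at 139 CPM in Type I and 79.5 in Type III (0.81, 0.74 to 0.88), Fads1 at 165 CPM in Type I and 112 in Type III (0.56, 0.50 to 0.62) and Elovl5 at 198 CPM in Type I and 141 in Type III (0.50, 0.44 to 0.55). Elovl6 was at 163 CPM in Type I and 166 in Type III, and Elovl1 at 98.6 CPM in Type I and 87.2 in Type III. Scd3 was the one member lower in Type I by the 2-fold mark, with 27 counts in Type I and 54 in Type III (-1.07, -1.85 to -0.44). With a prior count of 10 its log2 ratio was -0.89, short of 2-fold, and a minimum of 100 counts leaves it out. Fads3 had 96 counts in Type I and 64 in Type III, a log2 ratio of 0.45 whose interval of -0.01 to 0.94 holds 0.

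By the 2-fold mark 2 of 9 members were higher in Type I, beside 1.93% of all genes, and 1 was lower, beside 5.75%. The median log2 ratio was 0.50 over the 9 members and 0.01 over all genes with 20 counts. There is 1 library of each type, so nothing was tested. Pluripotency markers summed to 535 CPM in Type I and 1047 in Type III, primitive endoderm markers to 5583 and 4433, and trophectoderm markers to 1362 and 1511, in the same order. Their part in the difference was not tested, and the type of blastoid and its cell makeup cannot be told apart.

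Against the T09-treated EPSC, the label-given source of both, Scd1 and Scd2 were higher in Type I and lower in Type III. Scd1 stood at 136% (134 to 139%) and Scd2 at 121% (120 to 122%) in Type I relative to T09-treated EPSC. In Type III they stood at 56.5% and 40.4%. Fads2 was at 101% (97.3 to 105%) in Type I and 57.7% (55.1 to 60.5%) in Type III, and Elovl5 at 100% (97.1 to 104%) and 71.1% (68.5 to 73.7%), in the same order. Fads1 was at 146% (140 to 152%) in Type I and 99.1% (94.9 to 104%) in Type III. Elovl1 and Fads3 were higher and Elovl6 lower in both types. Elovl1 was at 98.6 CPM in Type I and 87.2 in Type III and at 21.7 in T09-treated EPSC, that is 4.54-fold and 4.01-fold higher. Elovl6 was at 163 CPM in Type I and 166 in Type III, and at 259 in T09-treated EPSC. Fads3 was 2.82-fold higher in Type I and 2.07-fold higher in Type III, on 96 and 64 counts against 37. Both ratios share the T09-treated EPSC library. By the 2-fold mark 2 members were higher and 1 (Scd3) lower in Type I, beside 22.7% and 18.1% of all genes, and 2 higher and 2 (Scd2 and Scd3) lower in Type III, beside 21.7% and 16.0%, so these counts were near the background. Day 5 blastoids without T09 were not analysed here.

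**Figure D4:**
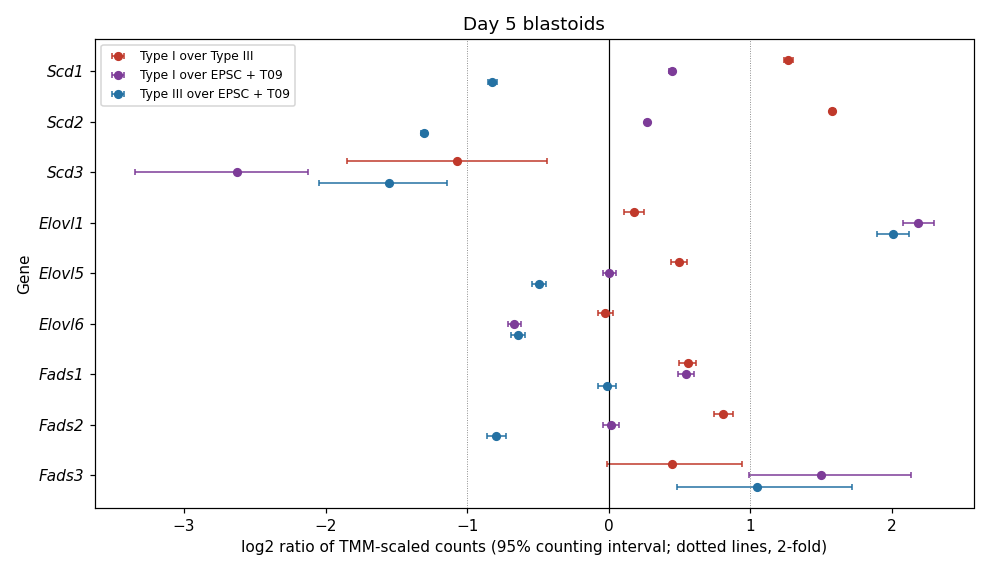
Log2 ratios for 9 genes among day 5 blastoids and T09-treated EPSC (x axis, TMM-scaled counts with 95% counting intervals; dotted lines at 2-fold), red for Type I over Type III, purple for Type I over T09-treated EPSC and blue for Type III over T09-treated EPSC. Scd1 and Scd2 lie right of 1 in red and left of 0 in blue, and Elovl1 lies near 2 in both purple and blue.

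Promoter sequence was at hand for 7 of the 10 members in RefSeq's GRCm38.p6 table, and no window is shown for Scd1, Scd2 or Fads1. The 250 bases before the gene start are printed for Scd3, Fads2 and Elovl5, whose levels were higher with T09 in both states, and for Elovl6, whose T09 change was nearest 0. The windows of Elovl1, Fads3 and Scd4 are not printed, and their matches are given below. Elovl1 and Fads3 were also higher with T09 in both states, but within counting error for Fads3 in each and for Elovl1 in EPSC. Both strands were searched for the letters TCACNCCAC and TCACNCC (a sterol regulatory element and its shorter form, the second lying within the first), CCAAT (the NF-Y box), GGGCGG (the GC box), and AGGTCA repeated after a gap of 4 bases (the LXR direct repeat) and GGTCA repeated after 5 (its core, which lies within it). Capitals mark a match to any of them.
Scd3, chr19:44203038-44203287, plus strand: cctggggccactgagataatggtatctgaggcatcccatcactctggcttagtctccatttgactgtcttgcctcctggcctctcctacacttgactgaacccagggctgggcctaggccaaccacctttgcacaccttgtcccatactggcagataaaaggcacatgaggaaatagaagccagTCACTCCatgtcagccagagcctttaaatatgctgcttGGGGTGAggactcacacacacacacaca
Fads2, chr19:10101504-10101753, minus strand: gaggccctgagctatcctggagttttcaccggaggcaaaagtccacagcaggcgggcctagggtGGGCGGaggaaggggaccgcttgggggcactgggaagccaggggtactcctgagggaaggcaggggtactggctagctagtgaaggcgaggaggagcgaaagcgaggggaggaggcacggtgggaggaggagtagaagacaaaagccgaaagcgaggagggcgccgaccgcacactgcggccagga
Elovl5, chr9:77917115-77917364, plus strand: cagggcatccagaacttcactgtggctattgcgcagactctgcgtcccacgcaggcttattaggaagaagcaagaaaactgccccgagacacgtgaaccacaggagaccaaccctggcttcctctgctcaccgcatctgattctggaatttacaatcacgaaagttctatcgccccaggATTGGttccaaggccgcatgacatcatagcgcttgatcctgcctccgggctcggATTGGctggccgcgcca
Elovl6, chr3:129532136-129532385, plus strand: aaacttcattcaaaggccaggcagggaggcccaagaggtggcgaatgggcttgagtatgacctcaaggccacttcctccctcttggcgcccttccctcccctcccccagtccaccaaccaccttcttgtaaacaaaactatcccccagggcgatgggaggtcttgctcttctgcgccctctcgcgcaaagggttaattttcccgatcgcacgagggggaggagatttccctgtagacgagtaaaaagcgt

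Scd3 held TCACNCC at 2 places, starting 66 and 28 bases before the gene start, a run found in 13.4% of all 32851 windows of this length in the table. Elovl5 held CCAAT, on the reverse strand as ATTGG, 71 and 17 bases before the start, found in 33.8% of windows, and Fads2 held GGGCGG 186 bases before, found in 32.7%. Elovl6 held none of these letters. Of the windows not printed, 1 of Elovl1 held GGGCGG at 5 places and CCAAT at 1, and another held GGGCGG at 2. Fads3 held GGGCGG and CCAAT at 2 places each, and Scd4 held none. The longer TCACNCCAC occurred in 1.05% of windows, the LXR direct repeat in 0.0152% and its core in 0.0639%, and none of the 3 occurred in the windows of the 7 members. A match is a description of letters, and its absence says only that they are not in this window.

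Genes that act with the members were counted in 4 lists. Of 19 genes that share the work of the desaturases and elongases (other elongases and desaturases, the reduction and dehydration steps of elongation, and the cytochrome b5 system that feeds electrons to desaturases), 18 were tested, and 0 rose and 0 fell with T09. Their median log2 T09 change was 0.05. Tecr, the enoyl-CoA reductase, had a log2 T09 change of 0.28 (adjusted p 0.747), Hsd17b12, the ketoacyl-CoA reductase, 0.20, Degs2, a sphingolipid desaturase, -0.42, and Hacd4, a dehydratase, -0.74, none of which passed. In EPSC over ESC 1 of the 18 fell, the elongase gene Elovl7, at -1.05 (adjusted p 0.00764 in edgeR). That is under the 14.3% of all genes higher and 14.5% lower in this fit, beside which the counts of the other lists in EPSC over ESC also stand.

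Of 11 genes of fatty acid synthesis, 2 rose with T09 and 0 fell, with a median of 0.20. Acaca, which makes malonyl-CoA, was at 200 CPM in T09-treated EPSC and 117 in EPSC and at 254 in T09-treated ESC and 134 in ESC, and rose by 0.85 on the log2 scale (adjusted p 0.0203). Fasn, the fatty acid synthase, was at 1020 CPM in T09-treated EPSC and 569 in EPSC and at 1510 in T09-treated ESC and 878 in ESC, and rose by 0.81 (adjusted p 0.0291 in edgeR's quasi-likelihood fit). Mid1ip1, an activator of acetyl-CoA carboxylase, had the largest log2 change of the list at 1.05 and did not pass (adjusted p 0.14), and Acss2, an acetyl-CoA synthetase, stood at 0.57. In EPSC over ESC Mid1ip1 rose (1.24) and 4 fell: Me1, the malic enzyme (-1.41), Acacb, the mitochondrial carboxylase (-0.80), Fasn (-0.61) and Slc25a1, the citrate carrier (-0.32).

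Of 15 regulators tested, 1, Srebf1, rose with T09 (log2 change 1.61, adjusted p 0.000194 in edgeR's quasi-likelihood fit) and 0 fell, with a median of 0.10. In EPSC over ESC Mbtps1, a protease that releases SREBP, rose (0.42) and Mlxipl, the carbohydrate response factor, and Rxra, an LXR partner, fell (-1.96 and -1.27). Ppara had a log2 T09 change of 0.64 and Mlxipl of -0.50, neither past the test. Of 16 genes that activate or use acyl chains, 2 rose with T09 and 0 fell, with a median of 0.03. Lpcat3, which places polyunsaturated chains into phospholipids, was at 106 CPM in T09-treated EPSC and 52.8 in EPSC and at 157 in T09-treated ESC and 82.9 in ESC (log2 change 0.96, adjusted p 0.0103). Acsl3, an acyl-CoA synthetase, was at 162 CPM in T09-treated EPSC and 99.6 in EPSC and at 198 in T09-treated ESC and 102 in ESC (0.83, adjusted p 0.0291, both by edgeR's quasi-likelihood test). Lpcat2 and Acsl6 had log2 T09 changes of -0.43 and -0.37 and did not pass. In EPSC over ESC 3 of these 16 fell, Acsl1 (-1.01), Acsl6 (-0.77) and Lpcat3 (-0.63), a share near the 14.5% of all genes. In Type I against Type III, Srebf1 was at 283 CPM in Type I and 86.8 in Type III and Lpcat3 at 242 CPM in Type I and 109 in Type III, past 2-fold, while Fasn (894 and 458 CPM) and Acaca (137 and 75.4 CPM) were higher by less than 2-fold. Pparg was past 2-fold lower, at 1.81 CPM in Type I and 6.02 in Type III. In siNr1h2 over siNT, 0 genes of the other 3 lists were past 2-fold. Of 17 partners with 20 counts 1 was higher and 2 were lower, beside 1.49% and 2.17% of all genes. These rested on few counts, in siNr1h2 and siNT 33 and 20 for Hacd4 (higher), and 13 and 45 for Fads6 and 7 and 34 for Cyb5r2 (lower).

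The genes on either side of the clusters were set beside the members. Near the Scd cluster, Pkd2l1 had a log2 T09 change of 0.75 (SE 0.147, adjusted p 0.179 in edgeR's quasi-likelihood fit), Bloc1s2 of 0.25 and Sec31b of 0.03, and Wnt8b was too low to test. Near the Fads cluster, Rab3il1 (-0.21), Best1 (-1.06), Fen1 (-0.01) and Tmem258 (0.22) did not pass either. None of the 7 neighbours tested rose or fell with T09. Rab3il1, next to Fads3, rose in EPSC over ESC by 2.55 (SE 0.237, adjusted p 6.5e-05), as Fads3 did, while Tmem258 rose by 0.43 (adjusted p 0.019) and Pkd2l1 fell by 1.28 (adjusted p 0.00023), all in edgeR. Rab3il1 was at 64.3 CPM in Type I and 54.7 in Type III and 13.0 in T09-treated EPSC.

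Over the 8 libraries, the genes whose log2 levels most resembled those of a member were named by Pearson r among 9334 other genes of at least 10 CPM on average, as a description with no test, since the libraries share cultures and treatments. For Scd2 they were Srebf1 (0.98), Scd1 (0.94), Abcg1 (0.93), Abca1 (0.92) and Tbcc (0.92), and for Scd1 Scd2 (0.94), Srebf1 (0.92), Tbcc (0.92), Lpcat3 (0.91) and Mylip (0.91). For Fads2 they were Srebf1 (0.95), Dhcr7 (0.95), Elovl5 (0.94), Pltp (0.94) and Ldb1 (0.93). For Elovl6 they were other genes altogether, among them Slc25a15, Rimklb, Prx and Pcsk6 (0.99 each). Srebf1 was at 289 CPM in T09-treated EPSC and 90.9 in EPSC, 284 in T09-treated ESC and 96.9 in ESC, 71.3 in siNr1h2 and 67.1 in siNT, and 283 in Type I and 86.8 in Type III. The libraries thus fell into 3 with Srebf1 at 283 to 289 CPM and 5 at 67.1 to 96.9 CPM, and Scd2 was at 2108 to 2715 CPM in the first 3 and 709 to 961 CPM in the other 5, so r over all 8 mainly describes which libraries lie in which set. Scd1 split likewise except that Type III, at 353 CPM, lay between the groups.

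**Figure D5:**
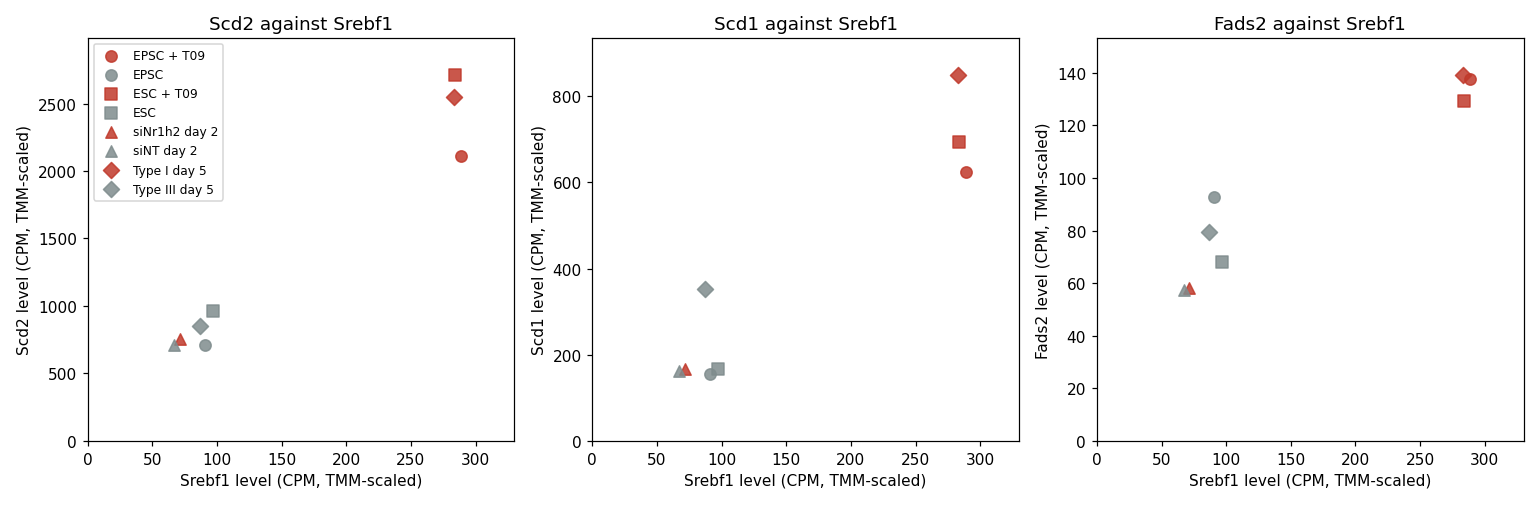
Level of Scd2, Scd1 and Fads2 (y axes) against the level of Srebf1 (x axis, CPM, TMM-scaled, linear axes from 0), 1 point per library; red points are T09-treated, siNr1h2 and Type I libraries and grey points the libraries each is set beside. The T09-treated EPSC, T09-treated ESC and Type I libraries lie together at the upper right, and Type III lies with the untreated libraries for Srebf1 but at 353 CPM for Scd1.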

How the data were processed

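The authors deposited 1 table of unnormalized read counts, with 24888 gene symbols as rows and 8 libraries as columns, all of them used. The submitters' processing notes name STAR, HTSeq, Cuffnorm and mm9. Their versions and roles, the annotation, the strand setting and the handling of multi-mapped reads are not given in the sources used here. Per the labels' protocols, libraries were prepared from DNase-treated total RNA by a strand-preserving method.

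The deposited counts were scaled by TMM in edgeR 4.0.16 (R 4.3.3). ESC and EPSC with and without T09 entered a quasi-likelihood fit of state plus treatment after filterByExpr, with Benjamini-Hochberg adjustment over 14477 genes at 0.05. For 9 comparisons of 2 libraries, log2 ratios used a prior count of 2 and an exact conditional (Clopper-Pearson) 95% interval. Nothing says that any group had more than 1 culture, so no value carries a replicate spread. The fit and the ratios were tested on simulated counts.

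Alternatives were RLE size factors or library totals, no filter, DESeq2 1.42.0, limma-voom (limma 3.58.1), count minimums, a 1.5-fold mark and a prior count of 10. Lengths, overlaps and coding sequences came from GENCODE M21, and gene order and promoters from RefSeq's GRCm38.p6 tables (Python 3.11.15). Coding identities came from global pairwise alignment in Biopython 1.88, and the windows of 90 bases from a MAFFT 7.526 alignment of the 4 Scd genes. The authors' build is older, so no other coordinates are printed. Named genes were all members, list genes past the test of a fit, up to 4 of each list with the largest T09 change, the 5 most alike 4 members by Pearson r (1 of them is not reported here), and the 2 nearest genes on each side of the Scd and Fads clusters; list genes named in comparisons of 2 libraries were chosen after their values were seen. The members and the lists (partners in desaturation and elongation, fatty acid synthesis, regulators, acyl chain users, and pluripotency, trophectoderm, primitive endoderm and fibroblast markers) were chosen with earlier results of these data known.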

Additional observations from a re-analysis of the deposited data

Results flagged for a closer look

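Log2 ratios of opposite sign between the states or treatments were found for 3 elongases, each resting on 1 pair of libraries per side, and none of these differences was tested. For Elovl1 the untreated ratio was within counting error. The log2 ratio of T09-treated over untreated cells for Elovl6 was -0.063 in EPSC (-0.102 to -0.023) and 0.14 in ESC (0.098 to 0.176). The log2 ratio of EPSC over ESC for Elovl1 was -0.23 with T09 (-0.367 to -0.097) and 0.11 without (-0.047 to 0.263). For Elovl5 it was 0.19 with T09 (0.138 to 0.234) and -0.079 without (-0.135 to -0.022).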

How the results depend on the processing

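No change past the fit's threshold or ratio past 2-fold changed direction under the alternatives run, but 6 ratios near 0 changed sign with the scaling. With RLE size factors Scd2 in siNT over EPSC was 0.03 (-0.01 as reported; 0.09 with library totals), Elovl6 in Type I over Type III was 0.019 (-0.025), Elovl6 in siNr1h2 over siNT was 0.001 (-0.012) and Scd3 in EPSC over ESC was -0.021 (0.003). With library totals, in Type I over T09-treated EPSC, Elovl5 was -0.036 (0.004) and Fads2 was -0.024 (0.016). The number of members called for T09 was 4 without a filter on low counts (2 as reported), where Scd3 and Fads2 also passed, and the number for EPSC over ESC was 1 with DESeq2 (2 as reported), where Fads3 did not pass. A minimum of 100 counts left 0 members past 2-fold in EPSC over ESC (1 as reported), 1 in T09-treated EPSC over T09-treated ESC (2), 1 in siNT over EPSC (2), 2 in T09-treated ESC over ESC (3), 2 in Type I over Type III (3), 2 in Type I over T09-treated EPSC (3) and 3 in Type III over T09-treated EPSC (4). A prior count of 10 left 2 in Type I over Type III and 3 in Type III over T09-treated EPSC. A 1.5-fold mark gave 1 member in siNr1h2 over siNT (0 as reported) and 7 in Type III over T09-treated EPSC (4). It also gave 4 in T09-treated ESC over ESC (3) and 4 in Type I over Type III (3). In siNT over EPSC it gave 3 (2), and in Type I over T09-treated EPSC 4 (3). Over all genes, 15 were called for T09, 46 without a filter and 35 with DESeq2, and 4172 for EPSC over ESC against 3073 with DESeq2. Over the 9 comparisons of 2 libraries 517 to 5868 genes were past 2-fold, 32 to 4283 with a minimum of 100 counts, 913 to 6995 with no minimum, 1048 to 8431 at 1.5-fold and 264 to 5636 with a prior count of 10. Leaving out 1 of the 4 stem cell libraries leaves the fit without residual degrees of freedom and only the pair ratio of the other state, as given above. No paired analysis was possible because each group has 1 library and the labels give no replicate numbers. Depth limits Scd3, Scd4 and Fads3, whose counts stayed under 200 in every library.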

Other observations

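Among the comparisons of 2 libraries, the genes that activate or store acyl chains were most often past 2-fold in day 5 blastoids against T09-treated EPSC. Those named here were chosen after their values were seen. Of 16 such genes, 9 were past 2-fold higher and 1 lower in Type I relative to T09-treated EPSC, beside 22.7% and 18.1% of all genes, and 7 were higher and 1 lower in Type III, beside 21.7% and 16.0%. In Type I the log2 ratio was 5.70 for Soat1 and 5.37 for Soat2, which esterify cholesterol, and 4.21 for Dgat2, which completes triacylglycerol synthesis. In Type III these ratios were 5.14, 5.35 and 3.855, in the same order. The gene past 2-fold lower was Agpat2, at -1.70 in Type I and -1.18 in Type III. Medians over the 16 genes were 1.16 in Type I and 0.675 in Type III, beside 7.29 and 6.83 over the primitive endoderm markers. There was 1 library per group and no test, and the summed primitive endoderm markers were at 5583 CPM in Type I and 4433 in Type III against 140 in T09-treated EPSC, whose part in these ratios was not tested.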
